A study of Caenorhabditis elegans with 2 samples.

Results

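The nuclear hormone receptor genes of Caenorhabditis elegans were examined for peaks of the posterior Hox protein EGL-5. The family was taken as every Ensembl protein-coding gene with a symbol that starts with nhr-, which gave 269 of the 19973 protein-coding genes on the 6 nuclear chromosomes. ChIP-seq, the sequencing of DNA recovered by chromatin immunoprecipitation, was run on whole L3 larvae of mixed sexes from strain OP54, which carries unc-119(ed3) on chromosome III and wgIs54, an integrated array from which an eGFP fusion of EGL-5 is made. All worms shared this genotype, so the 2 biological replicates form 1 group with no control group, and the same EGL-5 fusion is present in each. The whole animal was sampled, so signal from the few cells that contain EGL-5 is mixed with that of all other cells.

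Nuclear hormone receptors are transcription factors with a zinc finger domain that binds DNA and a second domain that binds small lipophilic ligands. Many act as sensors that couple sterols, fatty acids or xenobiotics to gene expression, and others time molting and larval development. The worm family is unusually large because of a lineage-specific expansion of genes related to HNF4, and most of these receptors have no known ligand. EGL-5 is an Abdominal-B-like homeodomain protein that acts in the tail, in rectal cells and male tail lineages.

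The deposited peak lists hold a summit and a score for each peak, on the authors' own scale, with no read depth. The set that passed the authors' filter on the irreproducible discovery rate (IDR), which scores how well peak ranks agree between replicates, held 2570 peaks, with a median score of 40.97 and a lowest score of 30.8. These were also the 2570 highest of the 28619 pooled peaks. A gene was counted as having a promoter peak when a summit lay between 1000 bp upstream and 200 bp downstream of any of its protein-coding transcript starts. The lists called for replicate 1 and replicate 2 held 30000 peaks each, and they include background by the authors' own description. Of the 2570 IDR peaks, 24 overlapped no peak of the replicate 1 list and 4 none of the replicate 2 list. A place in the IDR set therefore does not show that a single peak was high in both replicates. Replicate 1 and replicate 2 here are the numbers of the ce11 lists. The ce10 lists carry the numbers the other way round, so which of the biological samples each list came from is not settled.

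Sequences at 8 of the summits are shown as examples: promoter summits on chromosomes V and X, and summits in introns or distal sequence. Each line gives the 101 bases centred on the summit, on the plus strand of ce11 as held in RefSeq's WBcel235, 5′ to 3′. Capitals mark a match to GAGAGA or its complement TCTCTC, or to TTTATG, a posterior Hox hexamer, or its complement CATAAA. The examples hold such matches more often than the family's summits do. All those shown from outside promoters hold GAGAGA, which 7 of the 14 such summits hold. The only summit with TTTATG is shown, as are both of the 11 promoter summits with GAGAGA.
nhr-256, chrV:1743653-1743753: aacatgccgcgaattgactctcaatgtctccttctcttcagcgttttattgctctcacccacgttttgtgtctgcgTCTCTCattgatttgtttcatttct
nhr-57, chrV:4131700-4131800: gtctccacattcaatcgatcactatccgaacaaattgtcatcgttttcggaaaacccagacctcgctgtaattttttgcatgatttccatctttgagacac
nhr-132, chrV:534277-534377: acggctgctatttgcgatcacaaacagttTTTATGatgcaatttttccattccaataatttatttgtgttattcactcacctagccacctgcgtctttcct
nhr-48, chrX:15707616-15707716: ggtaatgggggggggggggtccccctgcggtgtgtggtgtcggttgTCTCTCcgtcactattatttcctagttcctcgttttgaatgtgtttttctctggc
nhr-32, chrX:13251645-13251745: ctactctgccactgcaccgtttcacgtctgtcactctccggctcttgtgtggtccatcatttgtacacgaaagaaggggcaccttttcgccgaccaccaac
nhr-19, chrII:9603572-9603672: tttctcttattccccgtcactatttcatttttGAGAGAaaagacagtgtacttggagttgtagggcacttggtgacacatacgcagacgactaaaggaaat
nhr-258, chrIV:8040798-8040898: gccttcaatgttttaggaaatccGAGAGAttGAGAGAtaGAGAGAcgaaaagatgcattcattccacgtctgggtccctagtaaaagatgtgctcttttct
nhr-3, chrX:14561786-14561886: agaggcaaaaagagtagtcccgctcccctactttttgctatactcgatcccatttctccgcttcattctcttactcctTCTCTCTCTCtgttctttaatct

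A promoter peak was present at 11 of the 269 nhr genes (4.09%, exact binomial 95% interval 2.06 to 7.20), where 8.92% of all protein-coding genes had one. The ratio of the nhr share to the share of other protein-coding genes, 8.98%, was 0.455. The 11 genes were nhr-49, nhr-256, nhr-57, nhr-48, nhr-32, nhr-142, nhr-47, nhr-35, nhr-190, nhr-132 and nhr-40. All 11 summits lay in intergenic sequence, which here means outside protein-coding genes. Noncoding RNA genes lay within 250 bp of the nhr-47 summit. No test of the family against other genes was made, and intervals cover counting error only.

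The nhr-49 gene, which encodes a regulator of fatty acid desaturation and of the fasting response, had the highest promoter score of the family. Its peak on chromosome I at 9869248 to 9869611 had a score of 50.2 and ranked 736 among the IDR peaks, with the summit 221 bp upstream of the nearest start. The overlapping peaks scored 19.97 in replicate 1, at rank 936, and 37.6 in replicate 2, at rank 395. Both ranks are within the 2570 highest of their lists, and the peak lies in the window of no other gene.

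The nhr-57 gene is known as a target of the hypoxia-inducible factor HIF-1. Its peak on chromosome V at 4131568 to 4131931 scored 46.9, with the summit at -139 bp from the only annotated start. It scored 20.8 in replicate 1, at rank 818, and 26.4 in replicate 2, at rank 1255. It was therefore high in both replicates, and the sequence at its summit, shown above, holds none of the 4 motifs searched.

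The nhr-48 gene, related to daf-12 and nhr-8, had a peak on X at 15707484 to 15707847 with a score of 46.9 and a summit at -547 bp. It scored 15.6 in replicate 1 and 28.6 in replicate 2, at ranks 1691 and 1006. A second IDR peak stood farther upstream at -3109 bp, with a score of 40.05. That second peak was high in replicate 2 only, with a score of 26.3 at rank 1267, against 4.85 at rank 12432 in replicate 1.

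The nhr-40 gene, needed for normal embryonic and muscle development, also had more than one peak. The promoter peak on X at 2592929 to 2593292 scored 32.7, near the lowest score kept, with a summit at -892 bp. It overlapped a peak of 9.80 at rank 4164 in replicate 1 and one of 22.3 at rank 1890 in replicate 2. The stronger peak lay at -3019 bp, with a score of 52.9, and it ranked 881 and 738 in the replicates. The promoter peak of nhr-40 lies in the window of T03G6.7 too, at -928 bp from that gene's start.

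On chromosome V the nhr-256 peak at 1743521 to 1743884 had a score of 49.2 and a summit at -68 bp. It scored 9.42 in replicate 1, at rank 4464, and 32.5 in replicate 2, at rank 693, so the replicates differed in whether it was among the highest. The nhr-142 peak at 5790915 to 5791278 went the other way, with 22.1 at rank 700 in replicate 1 and 16.04 at rank 3802 in replicate 2. Its pooled score was 39.1, and its summit was nearer to the start of F44E7.9, at -133 bp, than to that of nhr-142, at -544 bp. A peak shared like this cannot be given to a single gene.

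The remaining promoter peaks scored between 32.8 and 39.4. Those of nhr-32 (39.4) and nhr-35 (38.6), both on X, were within the 2570 highest of each replicate. Those of nhr-47 (38.9), nhr-190 (35.7) and nhr-132 (32.8), all on V, were within the 2570 highest of replicate 2 but ranked 3478, 3050 and 3686 in replicate 1. The nhr-47 summit lay 13 bp upstream of its start and also in the window of dnj-19, a gene for a DnaJ-type co-chaperone. Of the 11 promoter peaks, 3 (27.3%) lay in windows of 2 or more genes, beside 31.5% of all 1389 IDR promoter peaks.

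Scores at these promoters were moderate within the list. The median was 39.1, with a range of 32.7 to 50.2, and the median over all IDR promoter peaks was 42.7. In 7 of the 11 the score was below the median of all IDR peaks. The median distance of these summits from the nearest nhr start was -221 bp, against -209 bp for all IDR promoter peaks. No nhr gene had a promoter summit among the 500 highest pooled peaks, where 440 other genes (2.23%) did.

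**Figure D1:**
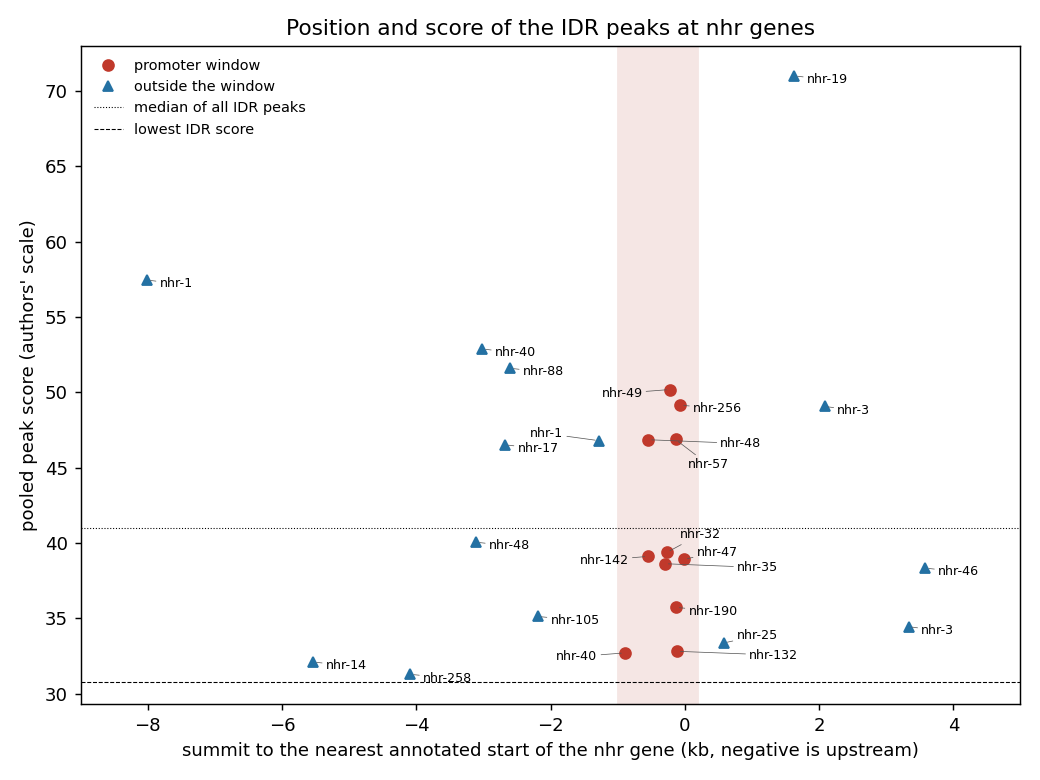
Position and score of the 25 IDR peaks at nhr genes: the x axis gives the distance from the summit to the nearest annotated start of the gene in kb (negative is upstream), the y axis the pooled peak score on the authors' scale; circles are summits in the promoter window (shaded), triangles those outside it, and lines mark the median and lowest score of all IDR peaks. The promoter summits lie between 32.7 and 50.2, and the highest score, 71.0 at nhr-19, lies outside the window.

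A further 14 IDR summits lay outside the promoter window but had an nhr start as their nearest start or fell inside an nhr gene. They belonged to 12 genes, 2 of which (nhr-40 and nhr-48) had a promoter peak as well, so 21 of 269 nhr genes (7.81%, exact interval 4.90 to 11.7) had an IDR summit in the promoter window or nearest to them, where 12.9% of all protein-coding genes did. The ratio to other genes on that count was 0.602. Of the 14 summits, 5 were in introns of the nhr gene and 9 in intergenic sequence. Noncoding RNA genes lay within 250 bp of the summits of nhr-14 and nhr-25 and of the lower-scoring nhr-3 summit. Counted by nearest start alone, 20 of 269 nhr genes (7.43%) had an IDR summit, where 10.7% of all protein-coding genes had one. The ratio was then 0.695.

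The highest peak of the family was in an intron of nhr-19 on chromosome II, at 9603440 to 9603803, 1628 bp downstream of the nearest start. It had a pooled score of 71.0 and ranked 213 among the IDR peaks. Its replicates were unequal, with a score of 49.2 at rank 38 in replicate 1 and 15.7 at rank 3968 in replicate 2.

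At nhr-1 on X there was a distal peak at -8013 bp with a score of 57.5, and an intronic peak, at -1282 bp from an internal start, with 46.8. The distal peak scored 20.9 and 35.3 in replicates 1 and 2, and the intronic one 19.9 and 30.5. All 4 of these values were within the 2570 highest of their lists. The nhr-3 gene, also on X, had an intronic peak with a score of 49.1 and a peak beyond its 3′ end with 34.4. The intronic one ranked 934 and 864 in the replicates, and the other 519 and 7516.

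The nhr-25 gene encodes the worm counterpart of fly FTZ-F1 and vertebrate SF-1 and acts in molting and epidermal development. Its intronic peak on X, 580 bp downstream of a start, had a score of 33.4. It scored 8.61 at rank 5166 in replicate 1 and 25.4 at rank 1391 in replicate 2, so it was among the highest in replicate 2 only. Intergenic peaks upstream of nhr-88 on chromosome II (51.6, at -2603 bp) and nhr-17 on X (46.5, at -2681 bp) were within the 2570 highest of both replicates.

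A further 4 lower peaks outside the window, intergenic except that of nhr-46, were each high in 1 replicate. The nhr-105 peak at -2190 bp, with a pooled score of 35.1, scored 29.3 at rank 277 in replicate 1 and 5.22 at rank 23078 in replicate 2. The nhr-46 peak (38.3), in an intron 3582 bp downstream of the nearest start, ranked 416 in replicate 1 and 5836 in replicate 2, and the intergenic one of nhr-14 (32.1) ranked 662 and 10543. The nhr-258 peak (31.3), whose sequence holds 3 separate GAGAGA matches, ranked 3887 and 1958.

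Of the promoter peaks, 6 of 11 were among the 2570 highest of replicate 1, 10 of 11 of replicate 2, and 5 of 11 of both (54.5%, 90.9% and 45.5%). Over all IDR promoter peaks these shares were 69.3%, 83.9% and 55.3%. For the peaks outside the window the counts were 11, 9 and 6 of 14 (78.6%, 64.3% and 42.9%), beside 71.5%, 76.9% and 51.1% of the 1181 IDR peaks outside promoter windows. When each replicate's 2570 highest peaks were used alone, summits in the promoter window were found at 11 nhr genes in replicate 1 and 12 in replicate 2. Of these, 6 genes were in both: nhr-32, nhr-35, nhr-40, nhr-48, nhr-49 and nhr-57. For nhr-40 the replicate 1 summit (13.7, rank 2223) is that of a peak that does not overlap the IDR promoter peak. The replicate 1 peak that does overlap it ranked 4164. The swap of numbers between builds rests on the scores. At equal rank those of replicate 1 on ce11 differed from those of replicate 2 on ce10 by a median of 0.218%, and from replicate 1 on ce10 by 39.3%.

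**Figure D2:**
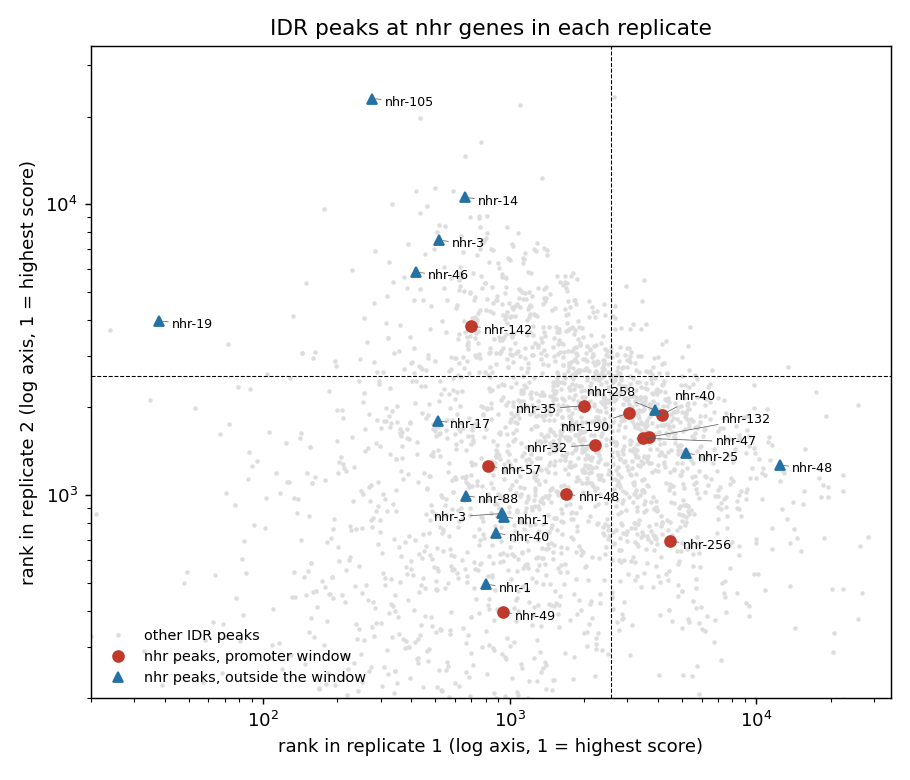
Ranks of the IDR peaks at nhr genes in replicate 1 (x axis) and replicate 2 (y axis), both log axes with 1 the highest score; circles are summits in the promoter window, triangles those outside it, grey points other IDR peaks within the plotted range, and dashed lines mark rank 2570. Of the 25 nhr peaks, 11 lie within both lines, and nhr-19 and nhr-105 are high in replicate 1 only.

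The family is spread unevenly over the chromosomes. Chromosome V holds 167 of the 269 genes (62.1%), beside 24.5% of other protein-coding genes, and X holds 23. On V, 6 of 167 nhr genes (3.59%, exact interval 1.33 to 7.66) had a promoter peak, where 5.05% of all genes on V did. On X, 4 of 23 (17.4%, exact interval 4.95 to 38.8) had one, where 10% of all genes on X did. Both intervals include the share of the other genes on that chromosome. On chromosome I the only one of 23 was nhr-49 (4.35%, exact interval 0.110 to 21.9), where 11.8% of all genes did. There was none among 15 nhr genes on II, 8 on III and 33 on IV, where 8.29%, 13.1% and 8.72% of all genes had one. The exact intervals for these counts of 0 reach 21.8%, 36.9% and 10.6%, so each includes the share of all genes on its chromosome.

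When the other genes were weighted to the chromosomes of the nhr genes, their share came to 6.96%, or 18.7 genes in 269, and the ratio rose from 0.455 to 0.588. Weighted by the number of transcript starts the ratio was 0.429, and by the length of the upstream gap, to the nearest upstream protein-coding gene, 0.485. Weighted by all of these together it was 0.612, from a share of 6.69%. The exact interval of the nhr share, 2.06 to 7.20, includes both 6.96% and 6.69%. The shares weighted by starts alone (9.54%) or by the upstream gap alone (8.44%) lie above it. The median upstream gap was 1590 bp for nhr genes and 932 bp for other genes. On the autosomes 7 of 246 nhr genes (2.85%, exact interval 1.15 to 5.77) had a promoter peak, beside 8.83% of other genes. That 8.83% was not weighted by chromosome, and 167 of the 246 genes are on V, where 5.10% of other genes had one.

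With peaks outside the window included, 9 of the 23 nhr genes on X (39.1%, exact interval 19.7 to 61.5) had an IDR summit in the promoter window or nearest to them, where 18.8% of all genes on X did. These were nhr-1, nhr-3, nhr-14, nhr-17, nhr-25, nhr-32, nhr-35, nhr-40 and nhr-48. Their upstream gaps ran from 2312 bp at nhr-3 to 27227 bp at nhr-1. The count by nearest start depends on such gaps, and the 18.8% was not weighted by them. X held 13 of the 25 nhr peaks (52%), beside 23.5% of all IDR peaks. Of the 14 outside the window, 9 were on X. The share of X among all IDR peaks outside promoter windows was not taken, so that count has no base of its own. On V all 6 nhr peaks were in promoter windows.

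**Figure D3:**
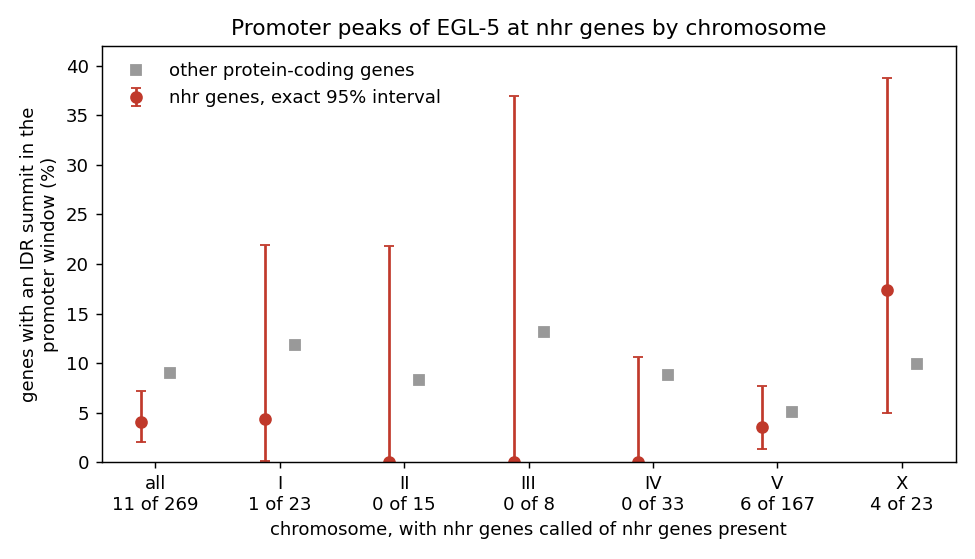
Share of genes whose promoter window held an IDR summit (y axis, percent) over all chromosomes and on each (x axis, with nhr genes called of nhr genes present); circles are nhr genes with exact binomial 95% intervals and squares other protein-coding genes. The nhr share is 4.09% over all chromosomes, 3.59% on V and 17.4% on X, and the intervals on single chromosomes are wide.

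Many nhr genes lie in clusters, and 159 of the 269 had another nhr gene within 10000 bp. Of those, 2 (1.26%, exact interval 0.153 to 4.47) had a promoter peak: nhr-49, 4503 bp from nhr-69, and nhr-132, 376 bp from nhr-58. Of the 110 genes with no such neighbour, 9 (8.18%, exact interval 3.81 to 14.96) had one, a share near the 8.92% of all protein-coding genes. Most genes with such a neighbour are on V, where 5.05% of all genes had a promoter peak. The 4 nhr genes on X with a promoter peak are all among those without one. Of the genes on V with a promoter peak, nhr-132 has such a neighbour, and nhr-142, nhr-190, nhr-256, nhr-47 and nhr-57 have none. The split was not matched by chromosome and its shares within V were not taken, so clustering apart from chromosome was not tested. The distance of 10000 bp was set for description, and no test was made.

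Among receptors with counterparts in flies or vertebrates, 1 of 9 had a promoter peak (11.1%, exact interval 0.281 to 48.2, near the 8.92% of all genes). That gene was nhr-48, and nhr-25 had an intronic peak. In the pooled list 7 of the 9 had a promoter summit (77.8%), where 40.1% of all genes did. That share was not matched for the number of starts, and each start adds a window. Of these genes nhr-23 has 6 starts, nhr-41 has 5 and nhr-67 has 1, beside a mean of 1.47 for genes outside the family. Outside the IDR set, summits lay in the windows of nhr-41, the TR2/TR4 counterpart (21.6, rank 4917), and of nhr-23, the ROR counterpart that drives molting (19.7, rank 5660). Lower still were nhr-85, related to Rev-erb (14.3), nhr-91, the GCNF counterpart (13.1), and nhr-6, of the NR4A type (8.04). For nhr-67, related to tailless, and nhr-8, a receptor of xenobiotic and sterol responses, no summit in the window was found in any of the 4 lists.

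Among 13 receptors of metabolism and nutrient response, nhr-49 had the only IDR promoter peak (7.69%, exact interval 0.195 to 36.03, near the 8.92% of all genes). The pooled list put a summit at 7 of the 13 (53.8%, with 40.1% of all genes). Its partners in lipid metabolism had weaker pooled summits or none: nhr-66 scored 26.8 at rank 3360 and nhr-13 scored 18.3, and nhr-80 had none in any list. The HNF4-like receptor gene nhr-64 scored 22.1 and nhr-86 16.8. Of the pair that controls the propionate shunt, nhr-68 scored 8.89 and nhr-10 had no summit. The nhr-114 window held a pooled summit of 9.53, nhr-62 one in replicate 1 only (3.12), and nhr-69 and nhr-76 none in any list. Among 9 receptors of larval development and molting, nhr-40 had a promoter peak (11.1%, again near 8.92%) and nhr-25 the intronic one described above. Here 6 of the 9 had a pooled summit (66.7%). This list shares nhr-6, nhr-23, nhr-25, nhr-67, nhr-85 and nhr-91 with the receptors that have counterparts, so their shares are not independent. There was no pooled summit in the windows of nhr-2, nhr-60 or nhr-67.

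Over the whole family the pooled list put a summit in the promoter window of 90 nhr genes (33.5%), where 40.1% of all protein-coding genes had one. For 79 of them the summit was outside the IDR set. Such summits can be background and are given as positions only. In the replicate lists the counts were 89 genes (33.1%, with 40.5% of all genes) for replicate 1 and 95 genes (35.3%, with 41.4% of all genes) for replicate 2. In none of the 4 lists was a summit found at 134 nhr genes (49.8%), beside 45.7% of other genes. By chromosome, the pooled nhr share was above that of other genes on V (31.7% against 29.5%), X (60.9% against 46.7%) and II (53.3% against 38.0%). It was below on I (17.4% against 47.1%), III (12.5% against 51.1%) and IV (30.3% against 38.2%). Except on I, the exact intervals of these nhr shares include the share of the other genes.

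The first peak below the IDR set, at rank 2571 of the pooled list, was that of nhr-44 on V, with a score of 30.77 and a summit at -344 bp. The highest summit in the nhr-44 window scored 9.15 in replicate 1 and 20.1 in replicate 2. Next came nhr-87 (28.9) and nhr-1 (28.4). The highest summits in any window of nhr-1 scored 33.8 at rank 167 in replicate 1 and 18.0 at rank 3014 in replicate 2. These need not be summits of the pooled peak. The rest of the 10 highest were nhr-66, nhr-232 (26.6), nhr-228 (25.4), nhr-19 (23.8), nhr-64, nhr-41 and nhr-88 (20.7). Of the highest 5000 pooled peaks, summits lay in the windows of 20 nhr genes (7.43%) and 14.97% of other genes, a ratio of 0.497. The ratio was 0.690 at 10000 peaks and 0.832 with all of them.

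**Figure D4:**
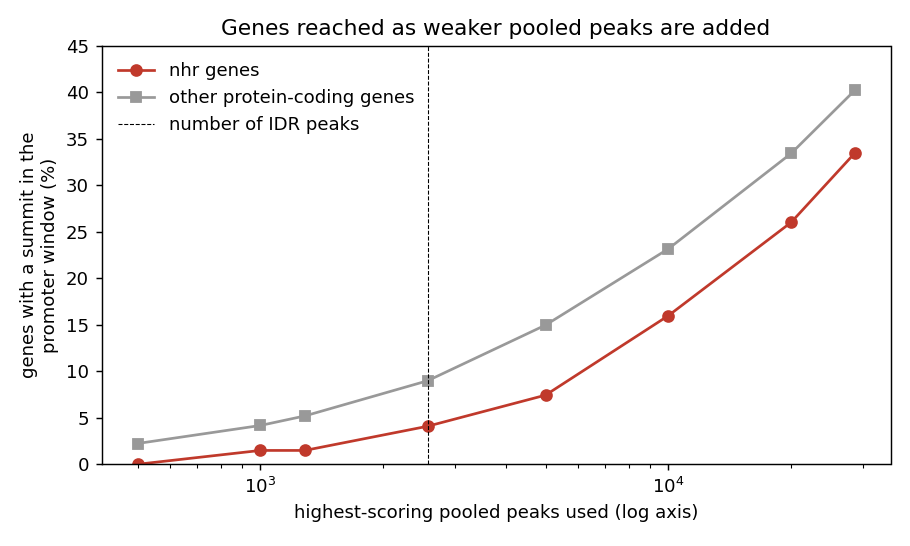
Share of nhr genes (circles) and of other protein-coding genes (squares) with a summit in the promoter window (y axis, percent) as more of the pooled peaks are used, from the 500 highest to all 28619 (x axis, log). The dashed line marks the 2570 IDR peaks, where the shares are 4.09% and 8.98%, and the nhr share is the lower of the pair at each of the 8 depths.

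Receptor genes that carry other names had no promoter peak: daf-12, fax-1, odr-7, sex-1 and unc-55. Peaks nearest to their starts but outside the window were found at daf-12, the receptor for dafachronic acids (37.0), odr-7, which acts in olfactory neurons (34.5), and sex-1, an X-linked element of sex determination (31.7). Of 4 coregulator genes, cbp-1, a CBP/p300-type acetyltransferase gene, had a promoter peak with a score of 101.9 at rank 59, above every nhr peak. It scored 46.7 in replicate 1 and 53.7 in replicate 2, at ranks 47 and 90. The corepressor gene din-1 had one with 43.6, and gei-8, related to NCoR, had a peak outside the window with 66.2. The Mediator subunit gene mdt-15, a partner of NHR-49, had none.

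Of 5 genes of the steroid ligand pathway, strm-1, a sterol methyltransferase gene, had a promoter peak (score 35.5), and daf-9, daf-36, dhs-16 and hsd-1 had none. The summit in the strm-1 window was nearer to the start of another gene, so the peak cannot be given to strm-1 alone. It scored 7.98 at rank 5748 in replicate 1 and 28.5 at rank 1015 in replicate 2. Among 8 known targets of NHR-49 or of NHR-10 with NHR-68, acs-2, an acyl-CoA synthetase gene induced by fasting, had the only promoter peak (12.5%, exact interval 0.316 to 52.7, near the 8.92% of all genes), with a score of 62.3. It scored 32.6 in replicate 1 and 30.6 in replicate 2, at ranks 194 and 830. The desaturase genes fat-5, fat-6 and fat-7, and fmo-2, acdh-1, hphd-1 and alh-8, had no IDR promoter peak. The exact interval includes 8.92% for each of these lists: 0 to 52.2 for the 5 receptors with other names, 6.76 to 93.2 for 2 of 4 coregulators and 0.505 to 71.6 for 1 of 5 steroid pathway genes. The lists hold few genes, and single members decide their shares.

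Sequence at the summits was searched on both strands, within 50 bp, for 4 motifs. Besides GAGAGA and the Hox hexamer these were the E-box CAGCTG and AGGTCA, the core element bound by many nuclear receptors. The GAGAGA motif was found at 2 of the 11 promoter summits (18.2%), nhr-256 and nhr-48, beside 24.8% of all 1389 IDR promoter summits. It was found at 7 of the 14 summits outside the window (50%), beside 29.2% of the 1181 IDR summits outside promoter windows. Those 7 are the summits of nhr-19, nhr-88, nhr-25, nhr-46, nhr-258 and both of nhr-3. TTTATG was found at nhr-132 alone, and it was present at 11.3% of all IDR summits. That is 1 of the 11 promoter summits (9.09%), beside 7.99% of all IDR promoter summits. None of the 14 outside the window held it, beside 15.2% of the IDR summits outside promoter windows. CAGCTG and AGGTCA were found at none of the 25, and at 4.75% and 2.92% of all summits.

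Over whole promoter windows, taken at the most upstream start of each gene, the family differed little from all protein-coding genes. GAGAGA was in 53.9% of nhr windows and 50.9% of all windows. For TTTATG the shares were 67.3% and 68.2%, for CAGCTG 19.3% and 20.9%, and for AGGTCA 26.8% and 26.7%. The median GC content was 33.9% in nhr windows and 35.0% in all. A match to these letters is a description of the sequence and not a measured binding site.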

How the data were processed

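ChIP-seq peak lists of 2 biological replicates of 1 group were used. Per the labels, library fragments were 150 to 350 bp. The authors deposited narrowPeak lists on ce11 and ce10, per the file headers in their notes, for each replicate, for both pooled (all labelled as peaks and background for IDR), and after IDR thresholding. The deposited score of each peak is on the authors' own scale and was used to rank and describe peaks within a list. The deposited −log10 q-value was not used. Not given in the sources used here: aligner, peak caller, IDR threshold, and how reads matching several near-identical receptor genes were treated. Read depth is unknown, so no peak has an interval of its own.

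Only ce11 coordinates are printed, and ce10 lists served to compare replicate names. No ce11 peak ended beyond a chromosome. Genes came from Ensembl release 115 on WBcel235, the same assembly, with 29314 distinct protein-coding starts. Summits were matched to windows in Python 3.11.15 with pandas 2.3.3, and the matching was tested on simulated data. Shares have exact Clopper-Pearson 95% intervals from scipy 1.17.1. Replicate values are those of the highest-scoring peak overlapping the IDR peak by at least 1 bp. In the gene lists and for the 10 highest other pooled summits they are those of the highest summit in any window of the gene. The text names each nhr gene with an IDR peak, the 10 with the highest other pooled summits and the members of 7 lists. The family and the lists were chosen with earlier results of these data known.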

Additional observations from a re-analysis of the deposited data

How the results depend on the processing

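The count of 11 nhr genes stayed within 1.5 times under 8 of 13 alternatives, from 8 to 14. It was 20 when only the nearest start of a summit counted, 4 with the higher-scoring 1285 IDR peaks, 5 with support among the 2570 highest peaks of each replicate, by an overlap of 1 bp or of 50%, and 90 with all pooled peaks. Fewer or more peaks enter by construction in all but the first. The ratio to other genes lay below 1 under all 13, from 0.286 to 0.832. Only the value of 0.832, with all pooled peaks, fell outside the interval of the main ratio of 0.455. Leaving out a replicate gave 11 to 12 genes and ratios of 0.489 to 0.520. The alternative limited to summits in the windows of 1 gene, with 8 genes and a ratio of 0.658, was chosen after seeing the data. The annotation tags no canonical transcript, so the most upstream start of each gene was used where 1 start was kept. No paired analysis was possible because the 2 samples form 1 group. Without read depth, the absence of a peak at a gene cannot be told apart from binding too weak, or in too few cells, to be called.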
